A study of Mus musculus with 24 samples.

Results

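Gene expression in P19 cells under 1 µM retinoid was compared between 24 h and 6 h of treatment, called the step below. P19 is a mouse line of embryonal carcinoma cells, pluripotent tumour cells that differentiate under retinoic acid, and was grown here as a monolayer on gelatine. The arrays were taken by their labels: the 24 h and the 6 h array of all-trans retinoic acid (ATRA, the natural ligand of the retinoic acid receptors) and of BMS753 (an agonist selective for RARα), both given at 1 µM. They make up 4 of the 24 arrays of the series, 2 at 24 h and 2 at 6 h, paired by agent, with 1 array for each agent and time. Of the other arrays, 6 hold the same agents at 2, 48 and 72 h. BMS641 (RARβ agonist) and BMS961 (RARγ agonist), both at 0.1 µM, have 1 array each at 2, 6, 24, 48 and 72 h, and the solvent control EtOH (ethanol) has 4 arrays without a time label. All groups are the same cell line, and whether any arrays came from separate cultures is not stated. The p-values measure the spread between these arrays. For the step, this spread holds the differences between EtOH arrays, which may be technical. It also holds how far the agents of 1 dose differ in their time courses.

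Retinoic acid receptors are nuclear receptors that sit on DNA with an RXR partner and switch transcription of nearby genes when a retinoid binds. Among their best known direct targets are Rarb, which encodes RARβ, and Cyp26a1, which encodes the hydroxylase that breaks retinoic acid down. Hox genes, which give cells a position along the head-to-tail axis, are known to respond to retinoic acid in the order in which they lie in their clusters, low-numbered groups first, and the TALE proteins Meis and Pbx bind DNA together with Hox proteins. In embryonal carcinoma cells the same treatment shuts the pluripotency genes down.

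The receptor's DNA element is shown first for both direct targets, because their transcripts were already high at 6 h and neither passed the test in the step. The stretches come from RefSeq's GRCm38.p6 promoters and are written along the gene's strand, with the receptor element DR5 (a direct repeat with a spacer of 5 bases) in capitals. In Rarb, at chr14:16575488-16575554 on the minus strand, the element starts 53 bases before the transcript start. In Cyp26a1, at chr19:37697751-37697807 on the plus strand, it reads on the opposite strand and its first printed base lies 32 bases before the start.
Rarb promoter: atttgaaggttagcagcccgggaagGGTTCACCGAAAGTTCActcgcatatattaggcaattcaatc
Cyp26a1 promoter: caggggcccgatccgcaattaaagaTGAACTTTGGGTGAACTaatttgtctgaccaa
Searched on both strands from 250 bases before to 50 bases after the start, DR5 occurred in 31 of 27025 genes with a promoter entry (0.115%). It occurred in 0 of 113 such genes that rose in the step and in 0 of 255 that fell, which says only that these letters are not in that window.

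Rarb read 11.62 with ATRA and 11.00 with BMS753 at 24 h, against 11.42 and 10.49 at 6 h, on the scale of log2 intensity used for all levels here. The EtOH arrays spanned 6.89 to 7.06, so all 4 arrays of the step lay far above them, and the step of 0.36 ± 0.11 (standard error, SE) gave an adjusted p = 0.123. Cyp26a1 read 11.00 with ATRA and 9.63 with BMS753 at 24 h, against 10.46 and 8.32 at 6 h, beside 6.05 to 6.50 in EtOH (step 0.92 ± 0.47, adjusted p = 0.456). For Cyp26a1 the 24 h and 6 h groups overlapped, since the ATRA array at 6 h was above the BMS753 array at 24 h.

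Between 6 and 24 h, 434 of 19938 genes were called (2.18%), 135 higher (0.677%) and 299 lower (1.5%) at 24 h. A call is a Benjamini-Hochberg adjusted p under 0.05 from limma, in a fit of all 24 arrays with a mean per agent and a time course shared by the agents of 1 dose. Of the called genes, 38 rose and 43 fell at least 2-fold, and the median over all genes was −0.02. In each of the 434 genes the ATRA step and the BMS753 step had the same sign, which the test of their mean favours, and the ATRA step was the larger in 390. Across all genes the steps had a standard deviation of 0.309 with ATRA, 0.185 with BMS753, 0.105 with BMS641 and 0.111 with BMS961, whereas pairs of EtOH arrays differed by 0.0941 to 0.143.

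The calls rest on a spread taken from all arrays. In a fit of only the 1 µM arrays 0 genes passed limma's test, with 956 at an unadjusted p under 0.05, and every called gene named below lost its call there and in a test against a 2-fold change. The count was 854 without the ATRA arrays and 3542 without the BMS753 arrays, fits in which the agents no longer have to share a course.

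**Figure D1:**
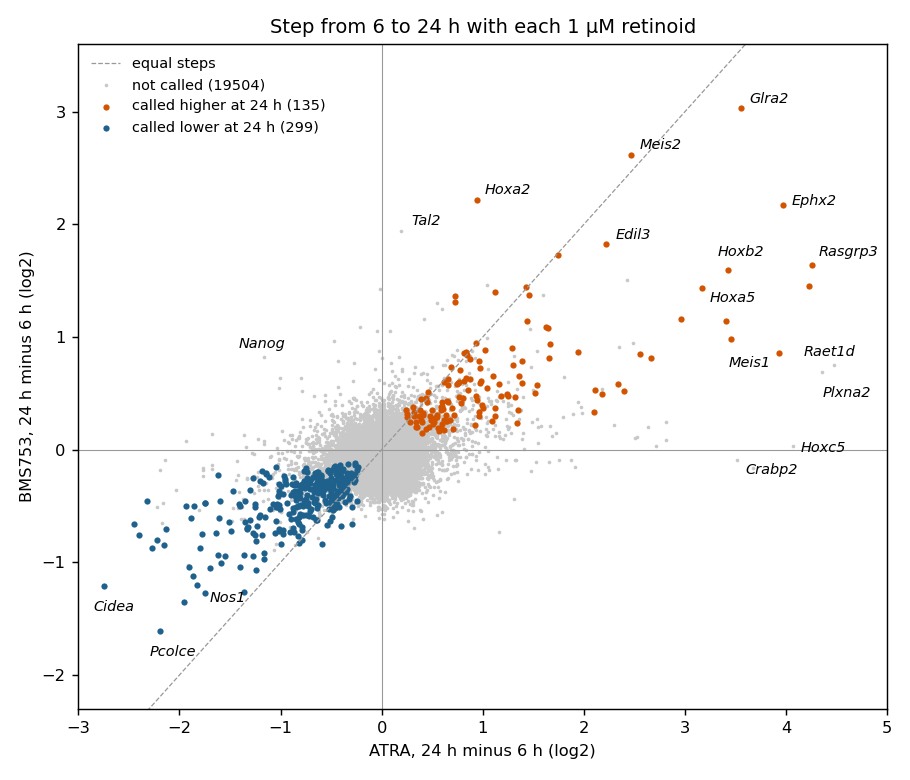
Each point is 1 of 19938 genes, with its ATRA step (24 h minus 6 h, log2) on the horizontal axis and its BMS753 step on the vertical axis. The 135 genes called higher and 299 called lower lie in the quadrants where both agents move the same way, mostly with the larger step under ATRA, while Hoxc5, Crabp2 and Plxna2 lie near 0 or low on the BMS753 axis and Nanog has opposite signs.

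The largest rise shared by both agents was that of Glra2, which encodes a subunit of the glycine receptor, a chloride channel. It read 9.52 with ATRA and 7.86 with BMS753 at 24 h, against 5.96 and 4.83 at 6 h, and 4.19 to 4.38 in EtOH. The 24 h arrays stood clear of the 6 h arrays, with a step of 3.29 ± 0.35 (adjusted p = 3.07e-04). No measure of background was among the values used here, so no fold is given for genes that were dim at either time. Glra1, the gene of another glycine receptor subunit, read 9.22 with ATRA and 6.46 with BMS753 at 24 h, against 4.99 and 5.01 at 6 h. Both of its 6 h arrays were below the lowest EtOH array (5.02), and its step was 2.84 ± 0.57 (adjusted p = 0.0163).

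Ephx2, the soluble epoxide hydrolase gene, read 11.07 with ATRA and 8.58 with BMS753 at 24 h, against 7.09 and 6.40 at 6 h (step 3.07 ± 0.60, adjusted p = 0.0137). Rasgrp3, an activator of Ras-family proteins, read 9.52 with ATRA and 6.68 with BMS753 at 24 h, against 5.26 and 5.04 at 6 h (step 2.95 ± 0.42, adjusted p = 0.00188). At 6 h Rasgrp3 was still inside the EtOH range of 5.10 to 5.33 with ATRA and below it with BMS753. For both genes the groups did not overlap, and the ATRA array was the higher one at 24 h.

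Other genes among the 15 largest shared rises had smaller steps. Plppr1, a membrane protein related to lipid phosphatases, rose by 2.27 ± 0.47, Edil3, a secreted ligand of integrins, by 2.02 ± 0.24 and Epha4, an ephrin receptor, by 1.74 ± 0.36 on the log2 scale. Skap2, an adaptor of Src-family kinases, rose by 1.44 ± 0.16, Pcdh18, a protocadherin, by 1.41 ± 0.21, and Eml1, a microtubule-binding protein, by 1.37 ± 0.30. Asic2, a proton-gated sodium channel, rose by 1.36 ± 0.31 (adjusted p = 0.0340), a call lost without EtOH replicate 3 (adjusted p = 0.053) or 4 (adjusted p = 0.051) and with robust moderation (adjusted p = 0.054). Skap2 read 10.25 with ATRA and 9.50 with BMS753 at 24 h, against 8.83 and 8.05 at 6 h. Its steps under the agents, 1.42 and 1.45, were the most alike among these rises after those of Epha4 (1.74 and 1.73).

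Hoxa5, Hoxb1, Hoxb2 and Hoxa2 rose, and so did the TALE genes Meis1 and Meis2. Of 14 measured genes of Hox groups 1 to 5 (15 listed), 4 rose, 0 fell and 10 were not called. Over all genes 0.677% rose and 1.5% fell. The median step of the 14 was 1.34 beside −0.02 over all genes. Hoxa5, which patterns the neck and upper trunk, read 9.91 with ATRA and 7.26 with BMS753 at 24 h, against 6.74 and 5.83 at 6 h, and 5.46 to 5.73 in EtOH. The 24 h arrays were above both 6 h arrays, with a step of 2.30 ± 0.34 (adjusted p = 0.00216). In the bulk RNA measured here, more transcript per cell and more cells with the transcript cannot be told apart.

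Hoxb2 and Hoxb1, genes of hindbrain segments, lay above their EtOH ranges of 6.86 to 7.16 and 6.92 to 7.16 in both 6 h arrays. Hoxb2 read 11.05 with ATRA and 8.89 with BMS753 at 24 h, against 7.63 and 7.29 at 6 h (step 2.51 ± 0.33, adjusted p = 9.92e-04). Hoxb1 read 10.86 with ATRA and 8.74 with BMS753 at 24 h, against 7.90 and 7.58 at 6 h, a step of 2.06 ± 0.45 (adjusted p = 0.0257, and 0.052 with robust moderation, which ends the call). Hoxa2 was the called Hox gene with the larger step under BMS753, at 7.20 with ATRA and 7.79 with BMS753 at 24 h, against 6.26 and 5.57 at 6 h (step 1.58 ± 0.21, adjusted p = 0.00118). In all of these genes the 24 h arrays lay above both 6 h arrays.

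Of 13 measured TALE and Cdx genes (14 listed), Meis1 and Meis2 rose and 0 fell, beside 0.677% and 1.5% of all genes. The list median was 0.09. Meis2 read 12.25 with ATRA and 10.81 with BMS753 at 24 h, against 9.78 and 8.19 at 6 h, a 5.83-fold rise (log2 2.54 ± 0.31, adjusted p = 5.69e-04). Its 6 h arrays were already above the EtOH range of 6.91 to 7.09. Meis1 read 10.00 with ATRA and 6.73 with BMS753 at 24 h, against 6.06 and 5.88 at 6 h (step 2.39 ± 0.50, adjusted p = 0.0217). The BMS753 array of Meis1 at 24 h was much closer to its 6 h array than the ATRA array was. Without the agent term in the fit, 13 of the called genes named here lost their calls in the step: Hoxa5 (adjusted p = 0.114), Meis1 (adjusted p = 0.071), Efhd1, Igsf21, Cdh8, Bmp4, Aldh1l1, Esrrb, Pax6, Gbx2, Jun, Wnt5a and Pfkm.

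**Figure D2:**
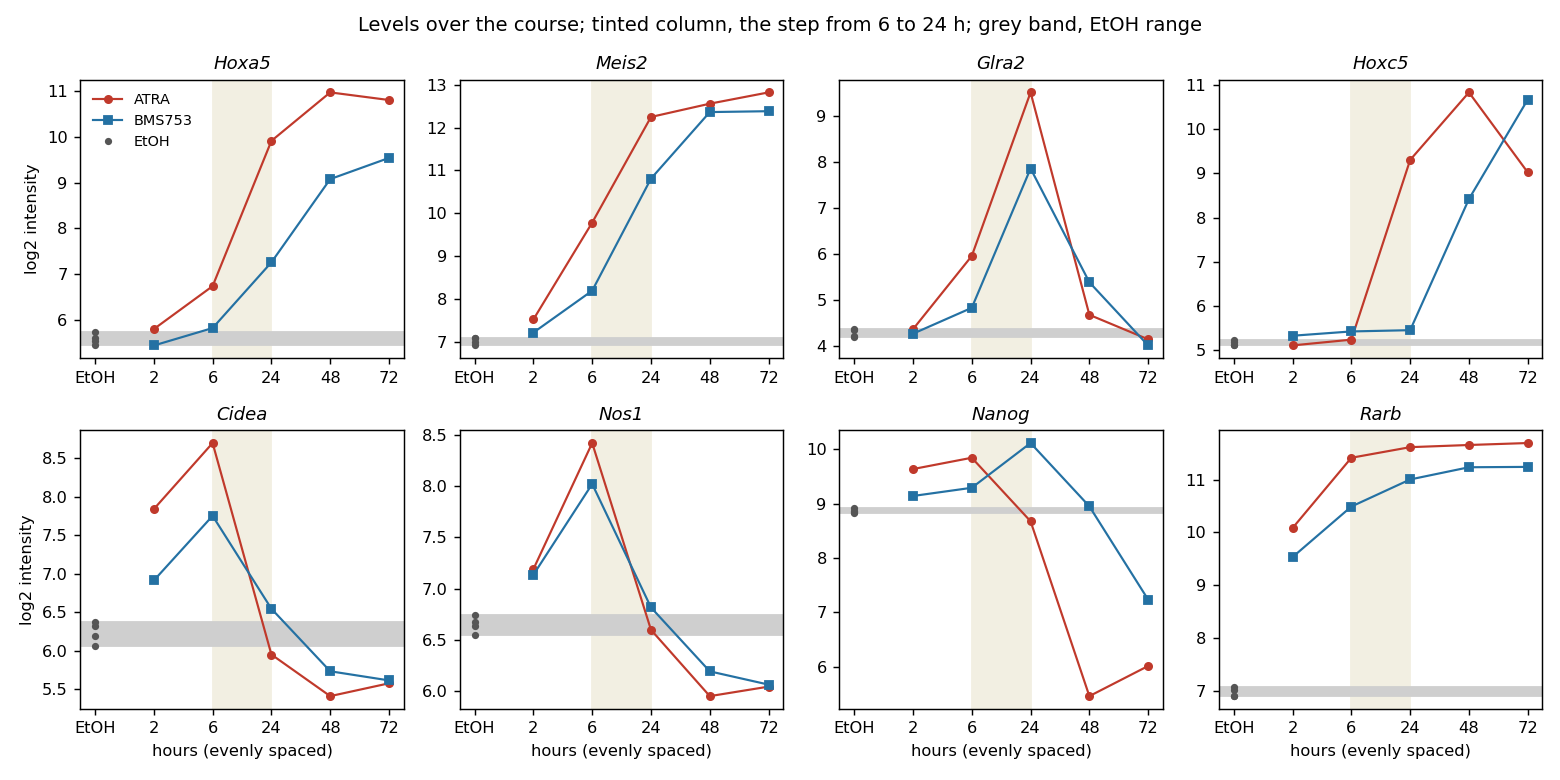
Log2 intensity of 8 genes in the 4 EtOH arrays (grey points and band) and, by hours of treatment on evenly spaced positions, in the single ATRA and BMS753 arrays, with the step from 6 to 24 h tinted. Hoxa5, Meis2 and Glra2 climb in the tinted column with both agents and Hoxc5 with ATRA, Cidea and Nos1 drop from a 6 h peak to near the EtOH band, Nanog parts by agent, and Rarb is already high at 6 h.

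Among Hox groups 6 to 13, with 23 measured genes (24 listed), 0 rose and 1 fell, Hoxb13, beside 0.677% and 1.5% of all genes. The median step was 0.05. Hoxb13, the last gene of its cluster and known from the tail end of the embryo, read 6.70 with ATRA and 6.82 with BMS753 at 24 h, against 8.92 and 7.62 at 6 h. EtOH spanned 6.44 to 6.65, so all 4 arrays were above EtOH, those at 24 h by little (step −1.51 ± 0.22, adjusted p = 0.00216). In the same cluster the microRNA gene Mir196a-1, picked out after its values were seen, read 5.11 with ATRA and 5.69 with BMS753 at 24 h, against 6.35 and 6.36 at 6 h, and 5.35 to 5.60 in EtOH. It fell by 0.96 ± 0.20 on the log2 scale (adjusted p = 0.0186). Its mature product is shown because its seed (bases 2 to 8, capitals) sets which messages it can pair with, and Hox messages are among its known targets. RefSeq places that arm at chr11:96265187-96265208 on the plus strand of GRCm38.p6, and the probe set reads the precursor transcript, not the mature arm.
mmu-miR-196a-5p: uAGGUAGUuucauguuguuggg

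Most falling genes had stood above EtOH at 6 h, as counted below. The largest fall shared by both agents was that of Cidea, a lipid droplet protein. It read 5.95 with ATRA and 6.54 with BMS753 at 24 h, against 8.70 and 7.75 at 6 h, beside 6.05 to 6.37 in EtOH. The 24 h arrays lay on either side of the EtOH range and the 6 h arrays far above it, with a step of −1.98 ± 0.28 (adjusted p = 0.00188).

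Nos1, the neuronal nitric oxide synthase gene, read 6.60 with ATRA and 6.82 with BMS753 at 24 h, against 8.42 and 8.02 at 6 h, with EtOH at 6.55 to 6.74. Its step was −1.51 ± 0.12 (adjusted p = 4.97e-05), the smallest adjusted p of the genes named here in the step. Kcnip3, a calcium sensor, read 9.63 with ATRA and 10.06 with BMS753 at 24 h, against 11.54 and 11.10 at 6 h, and EtOH spanned 9.48 to 9.57 (step −1.48 ± 0.22, adjusted p = 0.00264). For these genes the groups did not overlap, and every 6 h array was above every EtOH array.

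Of the other large falls, those of Tmem130, Pcolce, Extl1, Grik3 and Zfp946 went below EtOH. Tmem130, a transmembrane protein, read 7.10 with ATRA and 7.66 with BMS753 at 24 h, against 9.06 and 9.01 at 6 h, and EtOH spanned 8.69 to 8.73 (step −1.65 ± 0.16, adjusted p = 1.65e-04). Pcolce, which enhances procollagen processing, fell by 1.90 ± 0.41, Extl1, a heparan sulfate glycosyltransferase, fell by 1.51 ± 0.14, and Grik3, a kainate receptor subunit, fell by 1.38 ± 0.17 on the log2 scale. Cpt1a, which brings fatty acids into mitochondria, fell by 1.30 ± 0.29 and the zinc finger gene Zfp946 fell by 1.31 ± 0.15. Enpp4, a phosphodiesterase, fell by 1.49 ± 0.27 and Hpse, the heparanase gene, fell by 1.22 ± 0.21, and neither ended far from EtOH: Enpp4 read 7.50 with ATRA and 7.83 with BMS753 at 24 h beside 7.72 to 7.98 in EtOH, and Hpse read 6.00 and 6.06 beside 5.77 to 5.93.

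Of the 299 genes called lower, 207 (69.2%) had both 6 h arrays above the EtOH range, beside 15.8% of all genes. In 183 of the called genes (61.2%, beside 9.84% of all) both 6 h arrays were above that range and the 24 h arrays were not both above it. Both 24 h arrays were below the EtOH range in 185 (61.9%, beside 14.5%). Of the 135 genes called higher, 124 (91.9%) had both 24 h arrays above the EtOH range, beside 14% of all genes. The called genes were chosen on these same 24 h and 6 h arrays, so these shares describe where the calls lay and are no separate evidence.

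**Figure D3:**
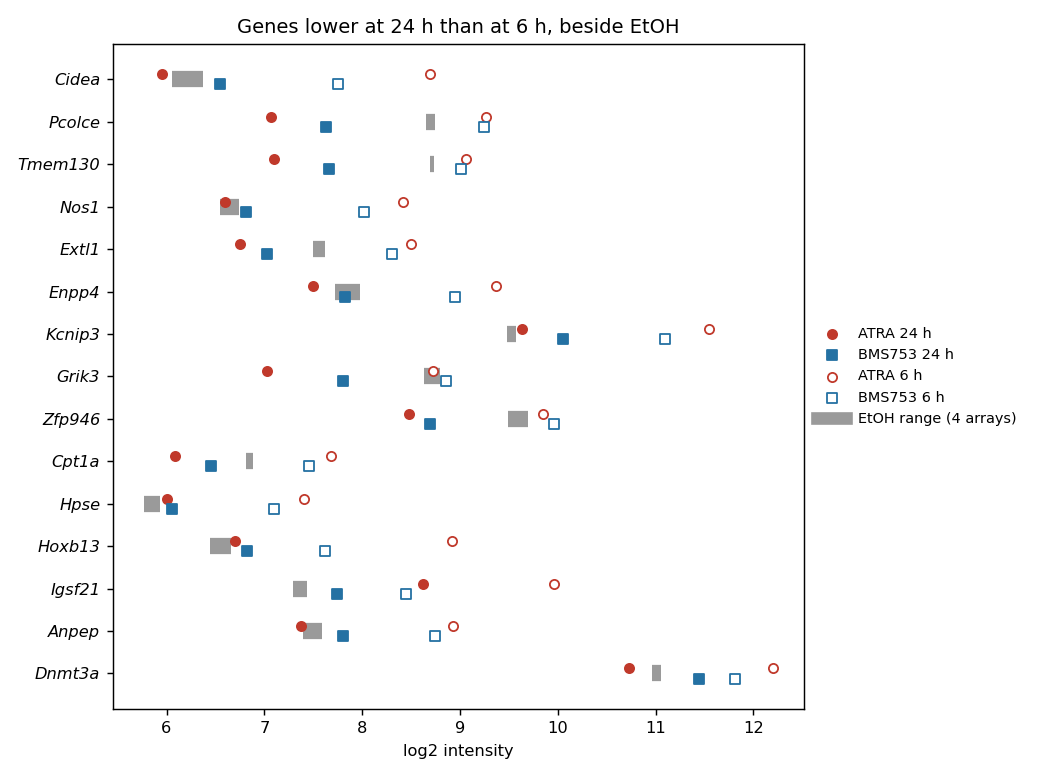
Log2 intensity of 15 genes that fell in the step, with filled symbols for the 24 h arrays, open symbols for the 6 h arrays, circles for ATRA, squares for BMS753 and a grey bar for the range of the 4 EtOH arrays. Cidea, Nos1, Enpp4, Hoxb13 and Anpep return close to the EtOH bar at 24 h, whereas Tmem130, Pcolce, Extl1, Grik3 and Zfp946 end below it.

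The steps of ATRA and BMS753 differed in 1294 of 19938 genes (6.49%), 619 with the higher (3.1%) and 675 with the lower (3.39%) step under ATRA. This difference was tested with each 1 µM array on its own, and the lone arrays were assumed to vary like the EtOH and 0.1 µM arrays. Taken singly in that fit, ATRA had 1446 genes called higher (7.25%) and 2096 called lower (10.5%), and BMS753 had 387 higher (1.94%) and 461 lower (2.31%). The dose was the same, 1 µM, and the agents differ in receptor selectivity.

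Hoxc5 had the largest such difference. It read 9.30 at 24 h against 5.24 at 6 h with ATRA, and 5.45 at 24 h against 5.42 at 6 h with BMS753, so the steps differed by 4.04 ± 0.18 on the log2 scale (adjusted p = 2.77e-11). With BMS753 the gene read 8.42 at 48 h and 10.67 at 72 h. In Hox groups 1 to 5, 12 of 14 genes had the higher and 1 the lower step under ATRA (beside 3.1% and 3.39% of all genes), and the exception was Hoxa2 (−1.28 ± 0.25, adjusted p = 0.00282). Singly, the median step of the 14 was 1.88 with ATRA and 0.10 with BMS753, beside 0.01 and −0.05 over all genes.

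Hoxc4 (2.73 ± 0.18), Hoxb4 (2.68 ± 0.17) and Hoxb5 (2.40 ± 0.16) also had the higher step under ATRA, and their BMS753 steps were 0.09, 0.03 and 0.10. The mean level of the 14 genes was 8.42 with ATRA and 6.78 with BMS753 at 24 h, against 6.46 and 6.25 at 6 h, and 6.02 to 6.11 in EtOH. Hoxb9 was among the 2 of 23 genes of groups 6 to 13 with the higher step under ATRA (1.41 ± 0.15, adjusted p = 4.75e-06), beside 3.1% of all genes. The lower step under ATRA was called in 1 of them, Hoxb13 (−1.42 ± 0.17), beside 3.39% of all genes. For Meis2 the steps differed by −0.15 with a 95% interval of −0.87 to 0.57, and for Epha4 by 0.01 with an interval of −0.42 to 0.45.

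**Figure D4:**
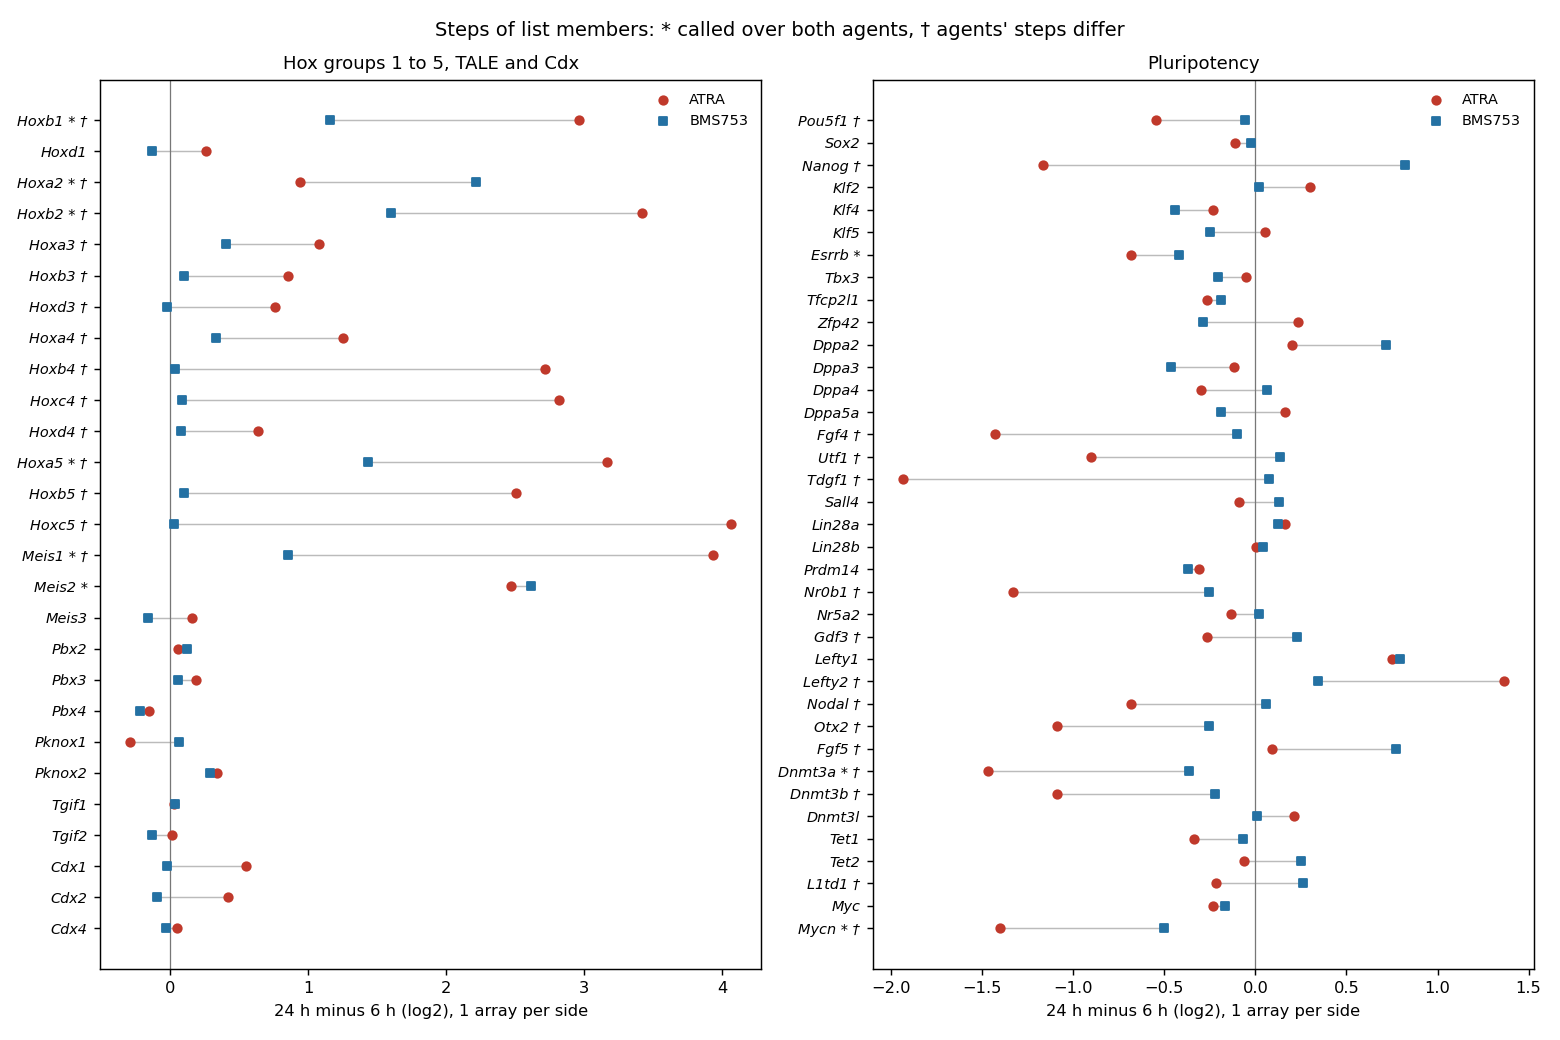
The step (24 h minus 6 h, log2) of each measured gene of Hox groups 1 to 5, TALE and Cdx (left) and of the pluripotency list (right), with circles for ATRA and squares for BMS753, each from 1 array per time. An asterisk marks a call over both agents and a dagger a difference between the agents' steps. The ATRA symbol lies right of the BMS753 symbol in most Hox genes, with Hoxa2 the reverse, and left of it in Nanog, Tdgf1, Fgf4, Utf1 and Mycn.

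Other genes whose step was larger with ATRA include Crabp2, a retinoic acid-binding protein, which read 11.80 at 24 h against 8.28 at 6 h with ATRA, and 8.26 at 24 h against 8.36 at 6 h with BMS753. The difference was 3.61 ± 0.16 (adjusted p = 1.80e-11). Raet1d, a ligand of the immune receptor NKG2D, differed by 3.72 ± 0.17, Plxna2, a semaphorin receptor, by 3.67 ± 0.13, Meis1 by 3.08 ± 0.22 and ccdc198 by 3.84 ± 0.14. With BMS753 the levels were higher at 48 h: Plxna2 read 7.50 at 24 h and 11.11 at 48 h, and ccdc198 read 4.25 at 24 h and 7.32 at 48 h.

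In the pluripotency list the agents' steps often differed. Of 37 measured genes of the list (38 listed), 14 had the lower step under ATRA and 1, Lefty2, the higher, beside 3.39% and 3.1% of all genes, with a median difference of −0.27 beside 0.06 over all genes. Nanog, a core pluripotency factor, read 8.67 at 24 h against 9.84 at 6 h with ATRA, and 10.11 at 24 h against 9.29 at 6 h with BMS753, beside 8.82 to 8.91 in EtOH. At 24 h the ATRA array was below EtOH and the BMS753 array further above it than at 6 h, and the steps differed by −1.99 ± 0.12 (adjusted p = 1.39e-09). Averaged over both agents the Nanog step was −0.17 ± 0.61 (adjusted p = 0.973), and it took the other sign, 0.82, without the ATRA arrays.

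Tdgf1, a co-receptor of the signal Nodal, read 9.66 at 24 h against 11.60 at 6 h with ATRA, and 11.39 at 24 h against 11.32 at 6 h with BMS753 (difference −2.01 ± 0.16, adjusted p = 1.05e-07). Fgf4 differed by −1.33 ± 0.11, Dnmt3a, a de novo DNA methyltransferase, by −1.10 ± 0.08, Nr0b1 by −1.08 ± 0.11 and Utf1 by −1.04 ± 0.10. Mycn differed by −0.90 ± 0.11, Dnmt3b by −0.87 ± 0.08 and Otx2 by −0.83 ± 0.07. For Pou5f1, which encodes Oct4, the difference was smaller, −0.49 ± 0.09 (adjusted p = 0.00106), with readings of 12.41 with ATRA and 12.79 with BMS753 at 24 h, against 12.96 and 12.85 at 6 h. Sox2 differed by −0.09 ± 0.07 (adjusted p = 0.486), and its arrays read 11.62 with ATRA and 11.63 with BMS753 at 24 h, against 11.73 and 11.65 at 6 h.

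Over both agents together, 3 of the 37 pluripotency genes fell and 0 rose, beside 1.5% and 0.677% of all genes. Their median step was −0.13. Mycn fell by 0.95 ± 0.18 (adjusted p = 0.00988) and Dnmt3a fell by 0.92 ± 0.20 (adjusted p = 0.0278) on the log2 scale. Esrrb fell by 0.55 ± 0.13 (adjusted p = 0.0407), a call lost without EtOH replicate 1 (adjusted p = 0.059), 3 (adjusted p = 0.056) or 4 (adjusted p = 0.057), without the ATRA arrays (adjusted p = 0.104) and after quantile normalization (adjusted p = 0.083). Of the embryonal carcinoma markers, Pou5f1, Sox2, Utf1 and Tdgf1 were bright in all 4 arrays of the step. Their lowest value was 9.66, for Tdgf1 under ATRA at 24 h. Nanog, also such a marker, read lower than that under ATRA at 24 h, and below its EtOH range, as given above.

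The miR-302 cluster, microRNAs typical of pluripotent cells, had lower steps under ATRA in 3 of 5 measured genes, beside 3.39% of all genes. These 5 genes were picked out after their values were seen, so the count is no separate evidence. Their probe sets read the precursor transcripts. Their mature arms are shown to group them by seed (bases 2 to 8, capitals): miR-302b-3p and miR-302d-3p share AAGUGCU, miR-302c-3p carries AGUGCUU, which is that run moved along by 1 base, and miR-367-3p has another seed. RefSeq's GRCm38.p6 places the printed arms on the plus strand of chromosome 3, from miR-302b-3p at chr3:127545275-127545297 over miR-302c-3p at chr3:127545406-127545427 and miR-302d-3p at chr3:127545665-127545687 to miR-367-3p at chr3:127545779-127545800.
mmu-miR-302b-3p: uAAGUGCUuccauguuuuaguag
mmu-miR-302d-3p: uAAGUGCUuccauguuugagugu
mmu-miR-302c-3p: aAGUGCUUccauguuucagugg
mmu-miR-367-3p: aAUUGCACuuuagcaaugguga
Mir302d read 4.49 at 24 h against 6.17 at 6 h with ATRA, and 6.85 at 24 h against 6.99 at 6 h with BMS753, a difference between steps of −1.54 ± 0.20 (adjusted p = 4.66e-05). Mir302a differed by −1.82 ± 0.32 (adjusted p = 0.00106) and Mir302c by −1.04 ± 0.20 (adjusted p = 0.00262). Mir302b (−1.01 ± 0.40, adjusted p = 0.136) and Mir367 (−0.08 ± 0.26, adjusted p = 0.882) were not called. At 6 h Mir302d was already below the EtOH range of 7.72 to 8.05 with both agents, and it read 7.31 with BMS641 and 7.35 with BMS961 at 6 h.

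The other large differences with the lower step under ATRA were in Slc35d3, a nucleotide sugar transporter (−2.04 ± 0.12), Spry4, a feedback inhibitor of FGF signalling (−2.02 ± 0.11), Efhd1, a calcium-binding protein of mitochondria (−1.79 ± 0.12), and Tal2, a basic helix-loop-helix transcription factor (−1.75 ± 0.19). Tal2 read 8.94 at 24 h against 8.75 at 6 h with ATRA, and 7.89 at 24 h against 5.95 at 6 h with BMS753, beside 4.35 to 4.44 in EtOH. ATRA had thus brought Tal2 near its 24 h level by 6 h. Over both agents Efhd1 fell by 1.55 ± 0.30 on the log2 scale (adjusted p = 0.0132).

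Of 24 measured genes of the retinoid list (25 listed), 0 were called over both agents, beside 2.18% of all genes. The median step was 0.00 over both agents, 0.08 with ATRA and −0.08 with BMS753. Taken singly, ATRA had 7 of these genes higher and 3 lower, beside 7.25% and 10.5% of all genes. BMS753 had 4 higher and 2 lower, beside 1.94% and 2.31%. In this list 4 genes had the higher and 1 the lower step under ATRA, beside 3.1% and 3.39% of all genes. Besides Crabp2, the higher steps were those of Stra8 (1.66 ± 0.16), a gene needed for meiosis, Crabp1, another retinoic acid-binding protein (1.00 ± 0.16), and Stra6, a retinol transporter (1.00 ± 0.18). Rxrg, which encodes a partner receptor, read 8.23 at 24 h against 10.45 at 6 h with ATRA, and 9.54 at 24 h against 10.04 at 6 h with BMS753. Its steps differed by −1.71 ± 0.17 (adjusted p = 1.80e-06). Dhrs3, a retinal reductase, was high at both times like Rarb, at 11.57 with ATRA and 10.91 with BMS753 at 24 h, against 11.19 and 10.43 at 6 h, and 8.71 to 8.81 in EtOH (step 0.43 ± 0.20, adjusted p = 0.378).

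In the 0.1 µM arrays, which share no array with the 1 µM step, limma called 0 genes between 24 h and 6 h (0%), with 326 at an unadjusted p under 0.05. This comparison changes agent and dose together. The 1 µM step differed from the 0.1 µM step in 6 genes (0.0301%), all with the lower step at 1 µM. Nos1 differed most, by −1.43 ± 0.17 (adjusted p = 0.00996): it read 7.18 with BMS641 and 6.97 with BMS961 at 24 h, against 7.23 and 7.10 at 6 h. The others were Tmem130 (−1.41 ± 0.22), Extl1 (−1.29 ± 0.20), Cybb, a subunit of the phagocyte NADPH oxidase (−0.90 ± 0.13), Pml, the organiser of PML nuclear bodies (−0.87 ± 0.14), and Cfap161 (−0.77 ± 0.10). Without any 1 EtOH array the count was 1 or 2. Nos1 lost its call only without the BMS641 arrays, without the BMS961 arrays or without all EtOH arrays, among the alternatives run for it. Hoxa5 was at 5.55 with BMS641 and 5.59 with BMS961 at 24 h, against 5.52 and 5.60 at 6 h, so no rise was seen at 0.1 µM, and Meis2 read 7.65 and 7.88 at 24 h, against 7.13 and 7.11 at 6 h.

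The step from 6 to 24 h lasts 18 h, that before it 4 h and that after it 24 h, and each neighbouring step shares arrays with it. Against the step from 2 to 6 h, 37 genes differed (0.186%), 1 higher (0.00502%) and 36 lower (0.181%). Cdh9, a cadherin, was the higher one (1.39 ± 0.23, adjusted p = 0.0230). Its levels with ATRA were 6.76 at 2 h, 6.35 at 6 h and 7.64 at 24 h, and with BMS753 6.81, 6.63 and 7.53. Igsf21, a synaptic adhesion protein, read 7.54 at 2 h, 9.96 at 6 h and 8.62 at 24 h with ATRA, and 7.65, 8.45 and 7.74 with BMS753 (difference −2.63 ± 0.40, adjusted p = 0.0137). Nos1 (−2.57 ± 0.21) and Anpep, aminopeptidase N (−1.93 ± 0.25), differed likewise. Cidea (−2.83 ± 0.49), Kcnip3 (−2.24 ± 0.39) and Hoxb13 (−2.07 ± 0.39) did too, but lost their calls without any 1 EtOH array, where the count was 23 to 26.

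Against the step from 24 to 48 h, 241 genes differed (1.21%), 146 higher (0.732%) and 95 lower (0.476%). Glra2 peaked at 24 h, at 5.96 at 6 h, 9.52 at 24 h and 4.68 at 48 h with ATRA, and 4.83, 7.86 and 5.39 with BMS753 (difference 6.95 ± 0.61, adjusted p = 7.06e-05). Il33, a cytokine (3.47 ± 0.64), Cdh8, a cadherin (2.83 ± 0.56), and Prrx1, a homeobox gene of mesenchyme (2.72 ± 0.54), also had the higher step from 6 to 24 h. So did Spon1, a secreted axon guidance protein (2.69 ± 0.24), and Nr0b1 (3.15 ± 0.65), whose call was lost without EtOH replicate 1, 3 or 4. Crabp1 (−2.83 ± 0.49), Cdh6, a cadherin (−2.42 ± 0.32), Tmem108 (−2.25 ± 0.39), Igdcc3 (−2.17 ± 0.32), Bmp4, a growth factor of the TGF-β family (−2.15 ± 0.17), and Ptn, the growth factor pleiotrophin (−1.98 ± 0.27), had the lower one. Bmp4 read 7.74 with ATRA and 7.84 with BMS753 at 24 h, against 8.22 and 8.18 at 6 h, and then 9.69 and 9.39 at 48 h. Without EtOH replicate 3 the count was 156, and without EtOH replicate 4 it was 138.

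Signalling genes moved both ways: of 55 measured (56 listed), 4 rose and 2 fell, beside 0.677% and 1.5% of all genes, with a median step of 0.07. Fgfr2, a receptor of fibroblast growth factors, read 10.14 with ATRA and 9.24 with BMS753 at 24 h, against 8.76 and 8.45 at 6 h (step 1.08 ± 0.19, adjusted p = 0.00869). Its relative Fgfr4 read 6.73 with ATRA and 6.63 with BMS753 at 24 h, against 7.60 and 7.36 at 6 h (step −0.80 ± 0.10, adjusted p = 5.69e-04). Id2, an inhibitor of differentiation factors, rose by 1.01 ± 0.13, and Sfrp2, a secreted Wnt modulator, by 0.33 ± 0.06, a call lost without the ATRA arrays (adjusted p = 0.091). Wnt5a, a secreted Wnt ligand, rose by 0.67 ± 0.16 (adjusted p = 0.0373), a call lost without EtOH replicate 2, 3 or 4 (adjusted p = 0.050, 0.054 and 0.051) and without the ATRA arrays (adjusted p = 0.375). Bmp4 fell by 0.41 ± 0.10 (adjusted p = 0.0419), a call lost without EtOH replicate 1 or 4 (adjusted p = 0.061 and 0.060) or without the ATRA arrays (adjusted p = 0.080).

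Of 37 measured neural progenitor genes (39 listed), Pax6 and Gbx2 rose and 0 fell, beside 0.677% and 1.5% of all genes, with a median of 0.05. Pax6, a transcription factor of the early neural plate and eye, read 8.97 with ATRA and 6.86 with BMS753 at 24 h, against 6.30 and 6.04 at 6 h (step 1.74 ± 0.42, adjusted p = 0.0453). Gbx2, a factor of the anterior hindbrain, read 10.83 with ATRA and 9.17 with BMS753 at 24 h, against 9.90 and 8.22 at 6 h (step 0.94 ± 0.22, adjusted p = 0.0382), and its groups overlapped. Both calls were lost without any 1 EtOH array, with adjusted p up to 0.068 for Pax6 and 0.060 for Gbx2, and that of Pax6 with robust moderation (adjusted p = 0.080). Of 45 neuron genes (46 listed) 0 were called over both agents, beside 2.18% of all genes. Singly, 8 rose and 4 fell with ATRA, beside 7.25% and 10.5% of all genes. With BMS753, 3 rose and 2 fell, beside 1.94% and 2.31%. The list's mean level was 6.99 with ATRA and 6.93 with BMS753 at 24 h, against 6.92 and 6.97 at 6 h. In EtOH it was 6.95 to 6.98. Of the neuron genes, 6 had the higher step under ATRA and 3 the lower, beside 3.1% and 3.39% of all genes. Lhx1, a LIM homeobox gene of early neurons, was among the higher (1.49 ± 0.15). Elavl3, a neuronal RNA-binding protein, was among the lower (−0.89 ± 0.13).

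Markers of other cell types that the cultures could hold gave 1 call over both agents, a fall, where 1.5% of all genes fell. Of 13 measured glia genes (14 listed), Aldh1l1, a folate enzyme used as a marker of astrocytes, fell by 0.62 ± 0.13 on the log2 scale (adjusted p = 0.0165), a call lost without the ATRA arrays (−0.31, adjusted p = 0.108). It read 6.61 with ATRA and 7.36 with BMS753 at 24 h, against 7.55 and 7.66 at 6 h, and 7.62 to 7.70 in EtOH. Of 31 endoderm, 28 mesoderm and cardiac, 18 neural crest, 19 fibroblast and smooth muscle and 10 trophoblast genes, 0 were called over both agents. Of all genes 2.18% were called. The medians of these lists ranged from −0.06 to 0.06. Singly with ATRA they were, in that order, 0.10, 0.12, 0.17, 0.01 and 0.03, beside 0.01 over all genes. With BMS753 they were −0.06, −0.15, −0.03, −0.08 and −0.06, beside −0.05. Called singly with ATRA, in the same order, 5, 4, 5, 2 and 1 genes rose, beside 7.25% of all genes. In that fit 2, 2, 1, 1 and 1 fell with ATRA, beside 10.5%. With BMS753, 2, 0, 1, 2 and 0 rose and 1, 0, 0, 0 and 1 fell, beside 1.94% and 2.31%. A call over both agents can miss a gene that moved with ATRA alone. The endoderm list had a mean level of 7.64 with ATRA and 7.45 with BMS753 at 24 h, against 7.49 and 7.48 at 6 h. Array values have no true 0, and whether cells of another type had part in the Hox and Nanog results was not tested.

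Of 33 cell cycle genes 0 were called over both agents, beside 2.18% of all genes, with steps from −0.19 to 0.47. Likewise 0 of 23 genes of p53, apoptosis and stress and 0 of 19 of cholesterol synthesis were called. At that share, 0 calls in lists this short say little. The median steps of these lists were, in that order, −0.02, −0.01 and 0.09, beside −0.02 over all genes. Singly with ATRA, 4, 2 and 5 of their genes rose and 6, 8 and 0 fell, beside 7.25% and 10.5% of all genes. With BMS753, 0, 2 and 4 rose and 0, 1 and 0 fell, beside 1.94% and 2.31%. Of 20 glycolysis genes 1 fell, beside 1.5% of all genes: Pfkm, which encodes phosphofructokinase (−0.53 ± 0.09, adjusted p = 0.00503). The list as a whole leaned the other way, with a median step of 0.10 over both agents, 0.07 with ATRA and 0.14 with BMS753. Among 25 immediate early genes 1 rose, beside 0.677% of all genes: Jun, at 10.02 with ATRA and 9.15 with BMS753 at 24 h, against 8.69 and 8.91 at 6 h (step 0.79 ± 0.19, adjusted p = 0.0406). The Jun call was lost without any 1 EtOH array (adjusted p up to 0.062) and without the ATRA arrays (adjusted p = 0.095).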

How the data were processed

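Affymetrix Mouse Gene 1.0 ST arrays measured RNA of P19 cells. For each probe set the authors deposited a log2 intensity, from Affymetrix Expression Console 1.1 per the submitters' processing notes; background correction and normalization are not given in the sources used here, and that the scale is log2 was judged from the range of 2.859 to 14.3. Array medians lay between 6.502 and 6.677. Of 35556 probe sets, 21789 had 1 gene symbol, 1621 several and 12146 none in the table used. For 999 genes with several probe sets the brightest on average was kept, leaving 19938 genes; no gene was left out as dim. The number of arrays limits the precision.

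The test was limma's (version 3.58.1, R 4.3.3; lmFit, then eBayes with trend) and was two-sided, with p-values adjusted by Benjamini-Hochberg over all genes. The main fit of 24 arrays had a mean for EtOH and each agent, time terms shared by ATRA and BMS753 and others shared by BMS641 and BMS961 (11 residual and 3.83 prior degrees of freedom). Differences between ATRA and BMS753 came from a fit with a mean for each of their arrays (7 and 11.8). On simulated data the first recovered 93% of genes changed by 1 on the log2 scale, with 5.88% false among its calls. The second recovered 62%, with 6.06% false. The simulated noise was independent and, for a gene, equally wide in all arrays, and for the first fit both agents shifted alike. These rates need not hold for the real arrays, where the agents' steps differed in 1294 genes. Alternatives were a filter on dim genes, quantile normalization, averaged probe sets, robust moderation, other sources of the spread, no agent term, and fits that left out arrays or agents.

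Lists (19, with 487 of 514 genes measured) are described by counts and medians. Named genes were the 15 largest rises and falls called with both agents' steps at least 1 (17 rises and 11 falls qualified), the 6 largest each way in the other comparisons, list members and the markers Hoxa5, Nanog and Aldh1l1; the microRNA genes lie outside this rule. The arrays compared, the lists and the rule were chosen with earlier results of these data known. Promoter and microRNA sequences are RefSeq's for GRCm38.p6.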

Additional observations from a re-analysis of the deposited data

Results flagged for a closer look

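In 63 of 94 reported genes, beside 6.49% of all genes, the steps of ATRA and BMS753 differed in limma's test of the difference itself. Some of the 94 were named for a large difference of this kind or picked after their values were seen. The count therefore follows in part from that choice and is no separate evidence. Each value below is the ATRA step minus the BMS753 step on the log2 scale. The higher steps under ATRA were led by Hoxc5 (4.04), ccdc198 (3.84), Raet1d (3.72), Plxna2 (3.67), Crabp2 (3.61), Meis1 (3.08), Glra1 (2.78), Hoxc4 (2.73), Hoxb4 (2.68), Rasgrp3 (2.62), Hoxb5 (2.40), Plppr1 (2.27) and Cdh8 (1.87). Next came Pax6 (1.85), Hoxb2 (1.82), Hoxb1 (1.80), Ephx2 (1.80), Hoxa5 (1.73), Stra8 (1.66), Lhx1 (1.49), Hoxb9 (1.41), Prrx1 (1.16), Igdcc3 (1.13), Jun (1.10), Crabp1 (1.00) and Stra6 (1.00). Smaller differences were those of Wnt5a (0.84), Cdh6 (0.77), Id2 (0.70) and Fgfr2 (0.60). The lower steps under ATRA were led by Slc35d3 (−2.04), Spry4 (−2.02), Tdgf1 (−2.01), Nanog (−1.99), Mir302a (−1.82), Efhd1 (−1.79), Tal2 (−1.75), Rxrg (−1.71), Cidea (−1.54), Mir302d (−1.54), Hoxb13 (−1.42), Fgf4 (−1.33) and Hoxa2 (−1.28). Next came Dnmt3a (−1.10), Nr0b1 (−1.08), Utf1 (−1.04), Mir302c (−1.04), Mycn (−0.90), Elavl3 (−0.89), Kcnip3 (−0.87), Dnmt3b (−0.87), Otx2 (−0.83), Enpp4 (−0.75), Grik3 (−0.65), Aldh1l1 (−0.63) and Igsf21 (−0.63). Smaller differences were those of Nos1 (−0.62), Tmem130 (−0.61), Pcolce (−0.59), Cpt1a (−0.58), Pml (−0.50), Pou5f1 (−0.49) and Pfkm (−0.41). The differences of Pcolce and Cpt1a were lost without EtOH replicate 4 (adjusted p = 0.058 and 0.053), and that of Pcolce also without EtOH replicate 3 (adjusted p = 0.050) and after quantile normalization (adjusted p = 0.065). Quantile normalization also ended the call of Wnt5a (adjusted p = 0.109), and a spread from EtOH arrays alone those of Nos1 (adjusted p = 0.077) and Cpt1a (adjusted p = 0.070). Hoxa2 stands apart among the Hox genes of groups 1 to 5 by its negative difference, and Tal2 had read nearly as high at 6 h as at 24 h under ATRA.

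The 1 µM step was lower than the 0.1 µM step in 6 genes: Nos1 (−1.43), Tmem130 (−1.41), Extl1 (−1.29), Cybb (−0.90), Pml (−0.87) and Cfap161 (−0.77). Agent and dose differ together there.

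Of the 94 genes, 4 had 1 EtOH array far from the other EtOH arrays, by Dixon's criterion, which chance meets in about 1 in 20 groups. EtOH replicate 2 was low for Ephx2, at 6.13 beside 6.49 to 6.57, and for Edil3, at 6.78 beside 6.95 to 6.97, and high for Rasgrp3, at 5.33 beside 5.10 to 5.14. EtOH replicate 1 was low for Hoxb9, at 7.55 beside 7.66 to 7.67.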

How the results depend on the processing

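The 434 calls of the 1 µM step numbered 528 without the third of genes with the lowest mean, 443 after quantile normalization, 423 with probe sets averaged and 421 with robust moderation. They numbered 2585 where EtOH arrays alone gave the spread, 0 with only the 1 µM arrays (956 at an unadjusted p under 0.05 in limma), 0 against a 2-fold change (33), 287 without the agent term and 981 with only the 4 arrays of the step. Leaving out the 48 h arrays gave 661, the 72 h arrays 1023 and both 2254. Leaving out an EtOH array or an agent gave 321 to 3542. The 0.1 µM step had 4 calls with the EtOH spread alone and otherwise 0.

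The 6 differences between the 1 µM and 0.1 µM steps numbered 1 under the filter, 1 after quantile normalization, 1025 with the EtOH spread alone and 0 with no EtOH arrays (986), and 0 to 2312 with an EtOH array or agent left out. The 1294 differences between ATRA and BMS753 numbered 760 with the EtOH spread alone and 1097 to 1737 otherwise. Against the step before, 37 calls became 1047 with the EtOH spread alone, 0 with only the 1 µM arrays (383) and 23 to 1413 on leaving out. Against the step after, 241 became 2892, 0 (783) and 138 to 3785 under the same settings.

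The 1 µM step of Nanog was −1.17 without BMS753 and 0.82 without ATRA, and that of Igdcc3 −0.58 without ATRA and 0.55 without BMS753, which are the agents' own steps; the cause of the other changes was not tested. By replicate number, no paired analysis was possible because such numbers exist for EtOH alone; pairing by agent is in the fit, and 287 is the count without it. With 1 array for each agent and time, no spread within a retinoid and time was measured.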
